A study of Mus musculus with 9 samples.

Results

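The genes described here encode the subunits of voltage-gated calcium and sodium channels in mouse brain. They were chosen by symbol alone, as every gene of the count table named Cacna1 with a letter, Cacna2d1 to Cacna2d4, Cacnb1 to Cacnb4, Cacng1 to Cacng8, or Scn with a number and the letter a or b. Of 20731 genes, 40 matched, and 38 of them had 10 or more counts in at least 3 of 9 libraries and were kept. These were 10 calcium channel pore genes (Cacna1), 4 alpha2delta genes (Cacna2d), 4 calcium channel beta genes (Cacnb), 7 gamma genes (Cacng), 9 sodium channel pore genes (Scn with the letter a) and 4 sodium channel beta genes (Scn with the letter b). The symbols left out were Cacng1, with at most 11 counts in a library, and Scn4a, which reached 29 counts in 1 library. All 38 kept genes also passed the filter of the statistical model.

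RNA was sequenced from male C57BL/6J mice aged 8 to 10 weeks, on day 2 after thrombosis of the superior sagittal sinus had been induced with ferric chloride (cerebral venous sinus thrombosis, CVST). Every mouse sequenced had this thrombosis. The CVST group had neither ligation nor drug, and the CVST+Ligation group also had its deep cervical lymph nodes ligated. The 4-PBA group had thrombosis, ligation and 4-phenylbutyric acid, an inhibitor of endoplasmic reticulum stress. According to the methods, control mice were given the solvent in the same volume, and which groups these were is not stated. The drug was given into the peritoneum at 100 mg/kg, according to the methods 30 min before modelling and according to the description of the data set after ligation. There were 3 mice in each group, and no mouse without thrombosis was among the libraries analysed here, so each value below compares thrombosed brains with one another.

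A voltage-gated calcium channel is built around 1 large pore protein, which senses the membrane potential and opens to calcium. An alpha2delta protein outside the cell and a beta protein inside it bring the pore to the membrane and set how readily it opens. Most of the gamma family is known instead as TARPs, which carry AMPA-type glutamate receptors to synapses. Sodium channels have a pore protein of similar plan that fires the action potential, with small beta proteins that tune its gating and also act as adhesion molecules. In brain, calcium channels trigger transmitter release at nerve endings, and sodium channels gather at the axon initial segment and the nodes of Ranvier.

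The libraries held 18100739 to 25091498 counts each, with a median of 23358349, and the 38 genes took 0.228% to 0.328% of them. Tissue was labelled brain, and described elsewhere as cortex. Markers of cortical excitatory neurons (14 of 14 genes in the table, none at 0 in every library) summed to 2858 to 3117 CPM (counts per 1000000, scaled between libraries by the trimmed mean of M values) in the CVST group, 999 to 2397 in the CVST+Ligation group and 1078 to 1390 in the 4-PBA group. Thalamic markers (13 of 13) went the other way, at 92.3 to 140, 281 to 757 and 515 to 893 CPM, and oligodendrocyte markers (10 of 10) summed to 2725 to 3579, 2751 to 6189 and 4862 to 7753 CPM. General neuronal markers (12 of 12) overlapped in all 3 groups, at 7560 to 8335, 7202 to 7856 and 6437 to 8385 CPM, the 4-PBA group through 4-PBA 2 alone, whose other mice lay below all other libraries. Members of that list differed in direction. Rbfox3 did not overlap between groups, at 166 to 228, 138 to 159 and 105 to 120 CPM. By group mean, Snap25 also ran lower, at 1939, 1564 and 1166 CPM. Nefm ran higher, at 522, 698 and 914 CPM, as did Nefl, at 380, 473 and 587. Cerebellar markers were highest in CVST+Ligation 2 for 14 of 14 genes, with a sum of 2081 CPM against 154 to 295 in the other libraries. Peripheral sensory neuron markers were highest in 4-PBA 2 for 7 of 7 genes. In whole tissue, fewer cells of a type and less RNA per cell cannot be told apart.

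Levels of different genes were compared as FPKM, which divides by length. The lengths behind them equalled the coding length of the annotation for 30 of 38 genes and lay within 7% of it for all 38. Coding bases make up 11.8% to 89.3% of these genes' exons by that measure, and whether reads in the rest were counted is not given in the sources used here, so the order of genes can depend on it. Among the sodium channel beta genes, Scn2b (54.9 to 194 FPKM), Scn3b (30.3 to 105) and Scn4b (16.2 to 197) overlapped one another.

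The pore genes of both kinds reached at most 42.0 FPKM. Among the calcium channel pores, Cacna1a (P/Q-type, at fast synapses) led with 16.5 to 42.0 FPKM, followed by Cacna1g (T-type, 14.5 to 26.3) and Cacna1b (N-type, 10.3 to 20.3), whose ranges overlapped. Cacna1s and Cacna1f, the pores of skeletal muscle and retina, stayed at or below 0.414 FPKM and 0.235 FPKM in every library. Scn8a (15.2 to 40.0 FPKM), Scn2a (11.4 to 38.3) and Scn1a (5.23 to 31.0), the main sodium channel pores of the adult brain, also overlapped. Of the alpha2delta genes, Cacna2d3 had 32.4 to 66.4 FPKM and Cacna2d4, which is known from the retina, 0.181 to 1.46. Cacnb3 led its family with 43.1 to 129 FPKM, and Cacnb4 was lowest with 6.68 to 14.6. Cacng7 (85.6 to 150 FPKM), Cacng3 (39.3 to 109) and Cacng8 (20.4 to 69.7) were the most abundant gamma genes by mean FPKM. Neighbours in this order overlapped, and Cacng8 also overlapped Cacng2 (22.4 to 44.8). Cacng6, a muscle-type gamma gene, was detected in all libraries but CVST+Ligation 2. Its count there was 0, and the limit that a count of 0 allows was 0.155 CPM.

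**Figure D1:**
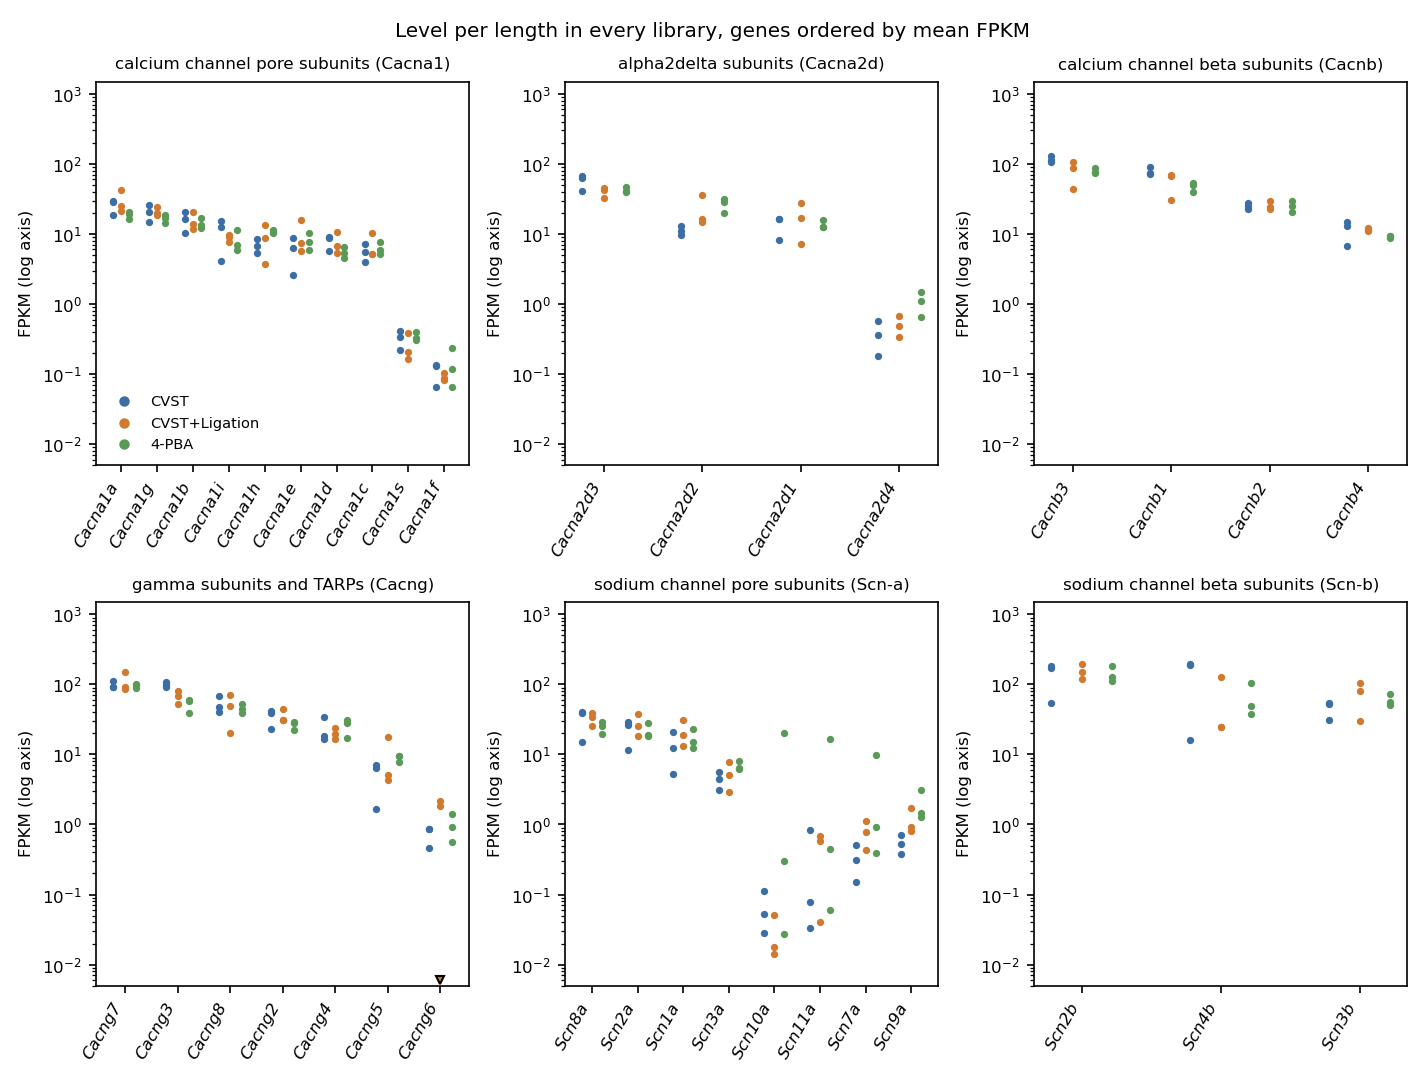
FPKM on a log axis for 36 of the 38 genes in every library (dots, coloured by group), in 1 panel for each family with genes ordered by mean FPKM; a triangle at the lower edge marks a value of 0. Scn10a, Scn11a and Scn7a each have 1 point far above their others, at 20.5, 16.5 and 9.86 FPKM, all from 4-PBA 2.

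To ask which channel genes differed after ligation and after the drug, edgeR's quasi-likelihood test was fitted over 14746 genes. The 3 comparisons share groups: the CVST+Ligation mice serve in both comparisons of that group, and the CVST mice serve as the reference in 2. With p-values adjusted by Benjamini-Hochberg over those genes, 0 of the 38 channel genes passed 0.05 in any comparison, where 3 genes in all passed between CVST+Ligation and CVST (0.0203%), 0 between 4-PBA and CVST+Ligation (0%) and 18 between 4-PBA and CVST (0.122%). At an unadjusted p below 0.05, 5 of 38 channel genes were called between CVST+Ligation and CVST (13.2%, against 9.64% of all genes), 4 between 4-PBA and CVST+Ligation (10.5% against 3.23%) and 10 between 4-PBA and CVST (26.3% against 15.4%). By direction these were 2 higher (5.47% of all genes) and 3 lower (4.18%) in the first comparison, 2 higher (1.81%) and 2 lower (1.42%) in the next, and 6 higher (8.07%) and 4 lower (7.33%) in the last. DESeq2, run as an alternative, tested 36 of the channel genes and gave 5, 5 and 10 at the unadjusted threshold (11.4%, 3.88% and 17.7% of all genes) and 0, 0 and 6 after adjustment. Cacng3, Scn9a, Cacna2d2 and Scn7a were among the 6, all between 4-PBA and CVST. Because no adjusted p-value of a channel gene passed in the main test, the differences below are given as higher or lower with their unadjusted or adjusted p-values.

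The 38 genes did not move as a block. Their median log2 fold change was 0.06 between CVST+Ligation and CVST, -0.15 between 4-PBA and CVST+Ligation, and -0.03 between 4-PBA and CVST, and over all genes it was 0.00, -0.02 and -0.01. A positive log2 fold change was found in 20 of 38 genes between CVST+Ligation and CVST (50.3% of all genes), 14 between 4-PBA and CVST+Ligation (47%) and 18 between 4-PBA and CVST (48.9%). Between CVST+Ligation and CVST the groups did not overlap for 6 of 38 genes (13.8% of all genes), 2 of them higher (6.61%) and 4 lower (7.21%). Between 4-PBA and CVST+Ligation this held for 4 genes (7.73%), 0 higher (3.51%) and 4 lower (4.22%), and between 4-PBA and CVST for 11 genes (23.7%), 7 higher (12.3%) and 4 lower (11.5%). Between 4-PBA and CVST, all 4 calcium channel beta genes had a negative log2 fold change (median -0.49), while 7 of 9 sodium channel pore genes had a positive one, among them Scn11a, whose value was -0.41 without 4-PBA 2. An exact permutation test of 3 mice against 3 cannot give a two-sided p below 0.1, so single genes rest on the fit across all genes.

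**Figure D2:**
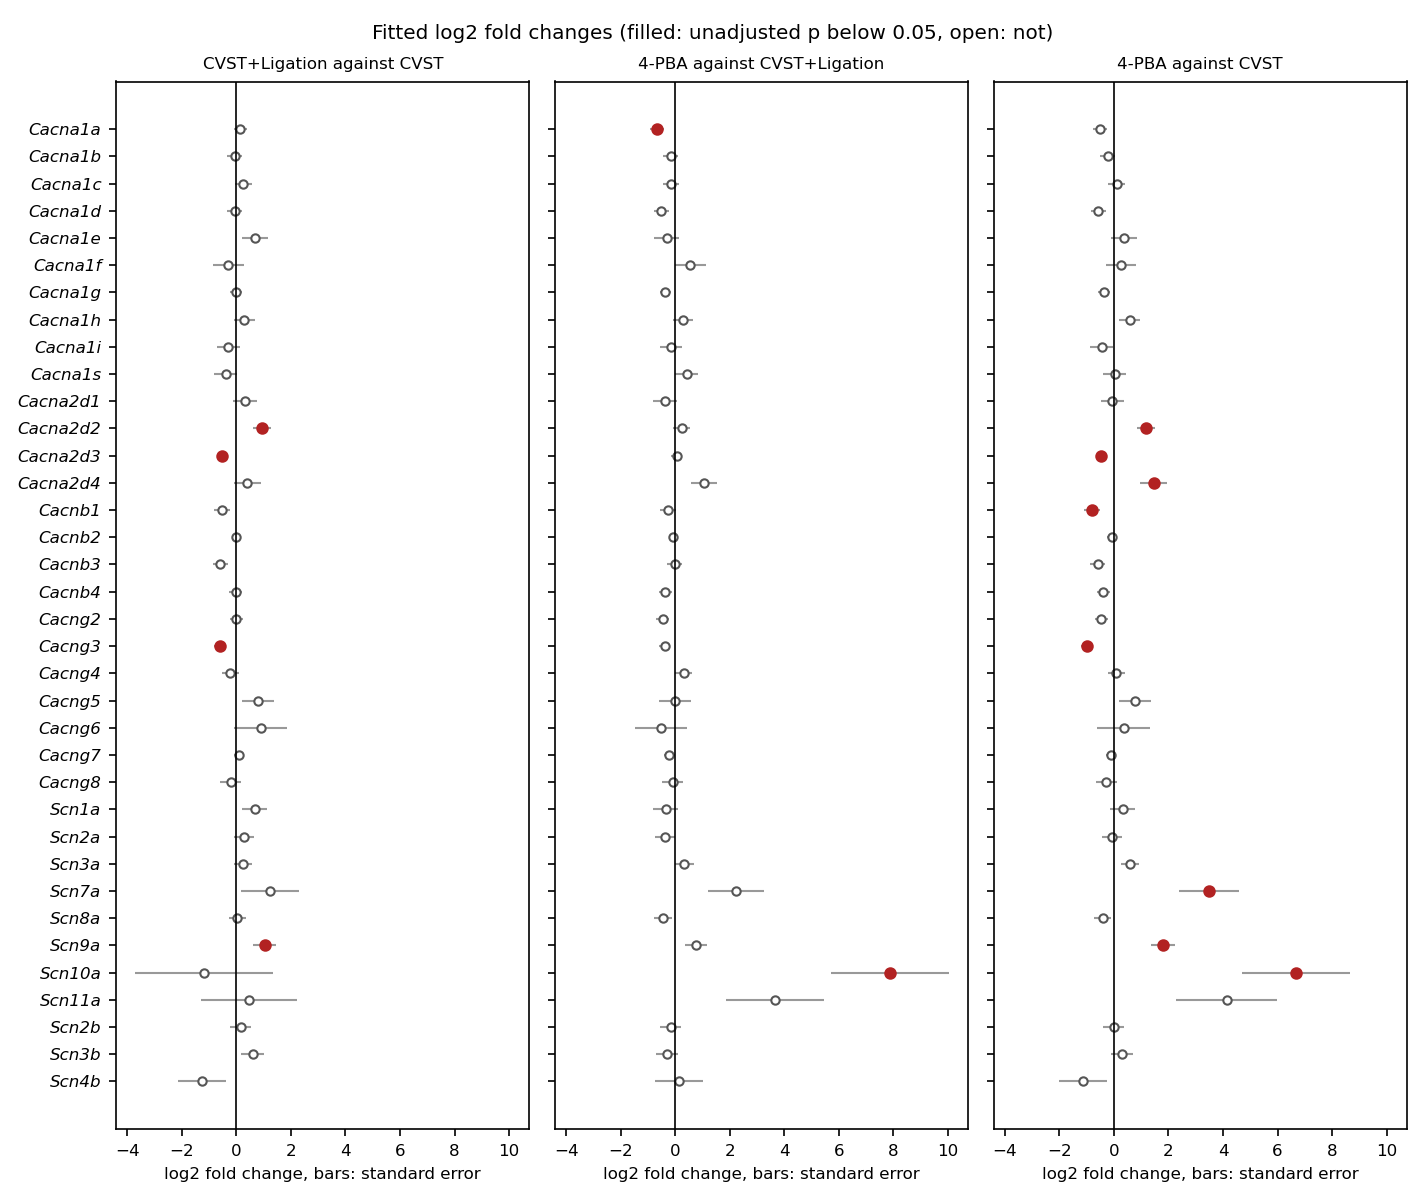
Fitted log2 fold change of 36 of the 38 genes in the 3 comparisons, with bars for the standard error; filled points have an unadjusted p below 0.05 and open points do not. The filled points number 4, 2 and 8 from left to right, and Scn10a lies farthest out, at 7.89 between 4-PBA and CVST+Ligation.

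**Figure D3:**
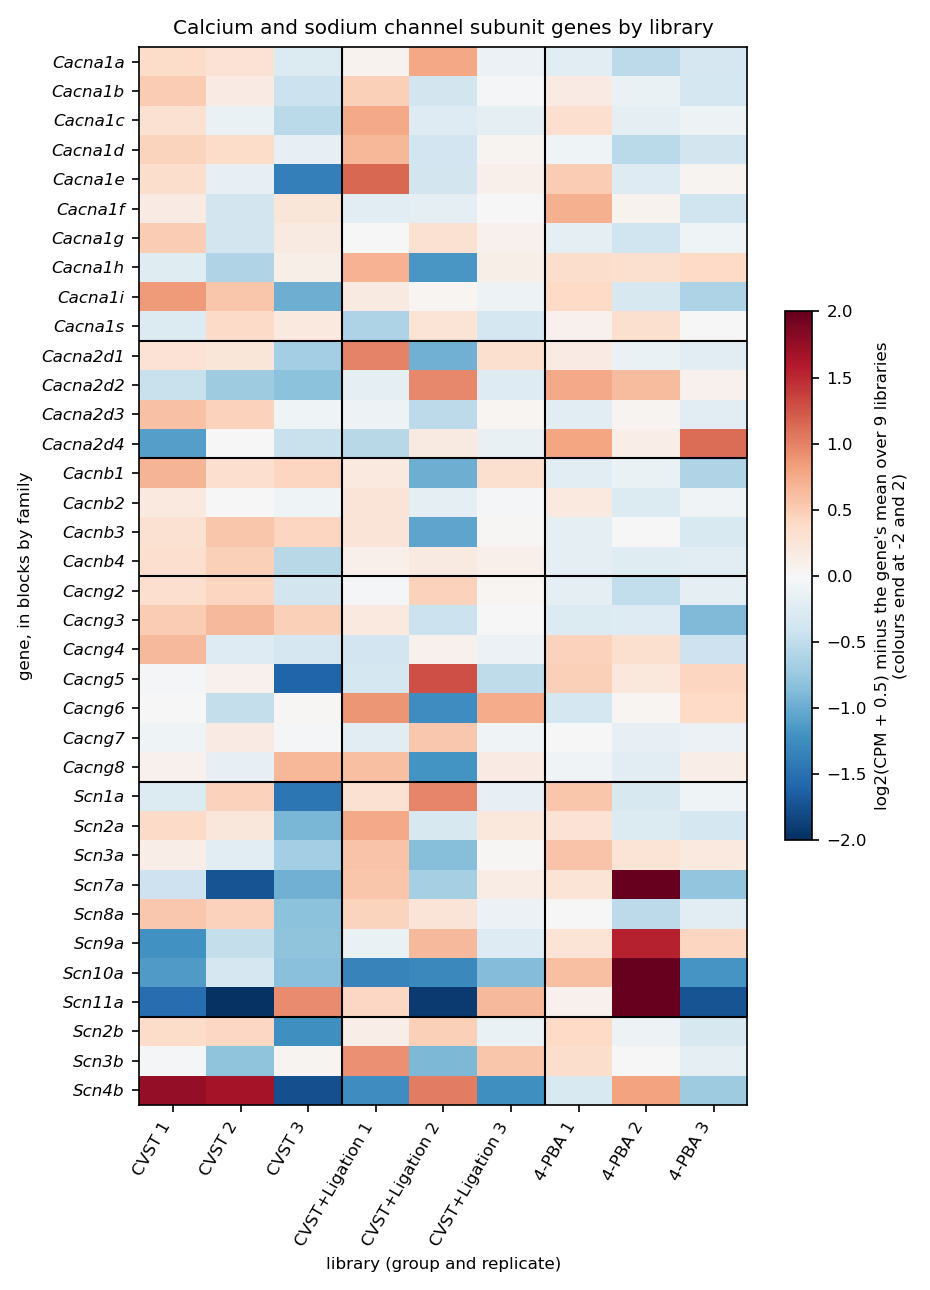
Log2(CPM + 0.5) of 36 of the 38 genes, each minus its mean over the 9 libraries, with libraries in columns by group and genes in rows by family; red is above the gene's mean and blue below. Cacng3 runs from red in the 3 CVST columns to blue in the 3 4-PBA columns, while CVST 3, CVST+Ligation 2 and 4-PBA 2 each differ from the other 2 mice of their group in many rows.

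No calcium channel pore gene was called between CVST+Ligation and CVST, with 0 of 10 at an unadjusted p below 0.05 in edgeR's test (9.64% of all genes) and log2 fold changes from -0.40 to 0.68. Cacna1a, the pore of the P/Q-type channel that drives release at most central synapses, was the 1 of 10 called between 4-PBA and CVST+Ligation (3.23% of all genes). Its levels were 231, 220 and 149 CPM in the CVST mice, 189, 309 and 165 in the CVST+Ligation mice, and 153, 124 and 142 in the 4-PBA mice. The 4-PBA values all lay below those of the CVST+Ligation group, by a narrow margin from its lowest mouse. The log2 fold change was -0.66 (standard error, SE, 0.25, unadjusted p = 0.0243, adjusted p = 0.9998). The high value of 309 CPM came from CVST+Ligation 2, the library with the high cerebellar markers, and without that mouse the log2 fold change was -0.33 (unadjusted p = 0.126). The call was also lost without 4-PBA 2 (unadjusted p = 0.0765) or 4-PBA 3 (0.051), and in 6 of 21 alternatives in all. Between 4-PBA and CVST Cacna1a had a log2 fold change of -0.52 (SE 0.25, unadjusted p = 0.0649). The L-type pores Cacna1c and Cacna1d, the R-type pore Cacna1e and the T-type pores Cacna1g, Cacna1h and Cacna1i, which set rhythmic and burst firing, were among the other 9 pore genes, whose unadjusted p-values ran from 0.0642 to 0.958 over the 3 comparisons. Groups did not overlap for Cacna1g in 4-PBA against CVST+Ligation (lower) and for Cacna1h in 4-PBA against CVST (higher, at 72.1 to 76.3 against 37.7 to 62.8 CPM).

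Cacna2d3, its most abundant gene, was lower after ligation, and Cacna2d2, which like Cacna2d1 binds gabapentin, was higher. Cacna2d3 had 241, 220 and 151 CPM in the CVST mice, 149, 111 and 165 in the CVST+Ligation mice and 138, 167 and 137 in the 4-PBA mice. Apart from CVST 1 and CVST 2 all libraries lay at 111 to 167 CPM, and the groups overlapped through CVST 3. The log2 fold change was -0.53 (SE 0.20, unadjusted p = 0.029, adjusted p = 0.453) between CVST+Ligation and CVST and -0.47 (SE 0.20, unadjusted p = 0.0464, adjusted p = 0.314) between 4-PBA and CVST. These calls depended on single mice: the first had an unadjusted p of 0.108 without CVST 1, 0.0814 without CVST 2 and 0.0929 without CVST+Ligation 2, and the second one of 0.177 without CVST 1.

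Cacna2d2 had 46.7, 38.8 and 35.7 CPM in the CVST mice, 56.0, 124 and 53.1 in the CVST+Ligation mice and 108, 99.0 and 67.3 in the 4-PBA mice. Every ligated mouse, treated or not, lay above every CVST mouse. The log2 fold change was 0.94 (SE 0.32, unadjusted p = 0.0164, adjusted p = 0.41) between CVST+Ligation and CVST and 1.17 (SE 0.32, unadjusted p = 0.0051, adjusted p = 0.135) between 4-PBA and CVST. Without CVST+Ligation 2, the mouse at 124 CPM, Cacna2d2 had a log2 fold change of 0.43 (unadjusted p = 0.0641) in the first comparison and 1.18 (adjusted p = 0.0179) in the second. The call in the first comparison was kept in 7 of 9 fits with 1 mouse left out, and lost in 3 of 21 alternatives in all. The thalamic marker sum, higher in all ligated mice, and the cerebellar sum of CVST+Ligation 2 moved with Cacna2d2, and their part in its difference was not tested.

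As shares of the family's FPKM, Cacna2d3 held 69.1%, 68.9% and 68.9% in the CVST mice, 48.8%, 42.2% and 58.5% in the CVST+Ligation mice and 45.2%, 53.2% and 54.2% in the 4-PBA mice. Cacna2d2 held 13.6%, 12.3% and 16.6%, then 18.6%, 47.5% and 19.1%, then 35.6%, 31.9% and 27.0%. CVST 3, which was low in Cacna2d3 and Cacna2d1, did not stand apart in these shares. The summed FPKM of the family overlapped in the 3 groups, at 58.7 to 96.1, 76.8 to 86.3 and 74.7 to 89.4. Cacna2d4 had 0.637, 1.95 and 1.30 CPM in the CVST mice, 1.16, 2.27 and 1.71 in the CVST+Ligation mice and 3.74, 2.19 and 4.80 in the 4-PBA mice. It was higher in 4-PBA than in CVST mice, without overlap, with a log2 fold change of 1.46 (SE 0.49, unadjusted p = 0.014, adjusted p = 0.199), and without 4-PBA 3 its unadjusted p was 0.056. Between 4-PBA and CVST+Ligation its log2 fold change was 1.06 (unadjusted p = 0.0518), and 11 of 21 alternatives gave an unadjusted p below 0.05. Cacna2d1 was not called, with unadjusted p-values from 0.4 to 0.887.

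All 4 calcium channel beta genes had a negative log2 fold change between CVST+Ligation and CVST, where 50.3% of all genes had a positive one. The same held between 4-PBA and CVST+Ligation, where 47% of all genes had a positive one. Some values were very small, at -0.011 for Cacnb2 and -0.029 for Cacnb4 in the former and -0.011 for Cacnb3 in the latter. The negative sign between 4-PBA and CVST follows from those comparisons and adds nothing to them. Of the 4 genes, 1 was called, between 4-PBA and CVST (15.4% of all genes). Cacnb1, a cytoplasmic beta subunit of muscle and brain, had 192, 151 and 163 CPM in the CVST mice, 137, 61.0 and 151 in the CVST+Ligation mice and 102, 110 and 79.3 in the 4-PBA mice. The 4-PBA values lay below all CVST values, with a log2 fold change of -0.79 (SE 0.30, unadjusted p = 0.0235, adjusted p = 0.237). This call was lost without CVST 1 (unadjusted p = 0.0738) or without 4-PBA 3 (unadjusted p = 0.0796). Between CVST+Ligation and CVST Cacnb1 differed by -0.54 on the log2 scale (SE 0.29, unadjusted p = 0.0992), and CVST+Ligation 2 at 61.0 CPM was its lowest library.

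Cacnb3, the family's most abundant gene per length, had 161, 193 and 177 CPM in the CVST mice, 157, 62.5 and 133 in the CVST+Ligation mice and 114, 130 and 106 in the 4-PBA mice. Both ligated groups lay below the CVST group without overlap. The log2 fold changes were -0.59 (SE 0.28, unadjusted p = 0.0625) and -0.60 (SE 0.28, unadjusted p = 0.0585), and neither was called. Without CVST+Ligation 2, the lowest library for both genes, the log2 fold change between CVST+Ligation and CVST was -0.29 for Cacnb3 and -0.23 for Cacnb1. Without that mouse Cacnb3 had an adjusted p of 0.0458 and Cacnb1 one of 0.0296 between 4-PBA and CVST. Cacnb2 and Cacnb4 had unadjusted p-values from 0.147 to 0.95 in the 3 comparisons. The cortical marker sum was also lower in both ligated groups than in the CVST group and lowest in CVST+Ligation 2, and its part was not tested.

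Cacng3 was the gamma gene that differed most clearly. It encodes a TARP found mainly in forebrain neurons. Its levels were 94.3, 103 and 91.7 CPM in the CVST mice, 75.6, 48.6 and 65.8 in the CVST+Ligation mice, and 54.6, 55.1 and 35.5 in the 4-PBA mice. The CVST mice lay above all others, while the ligated groups overlapped through CVST+Ligation 2. Cacng3 had a log2 fold change of -0.60 (SE 0.21, unadjusted p = 0.0159, adjusted p = 0.409) between CVST+Ligation and CVST, of -0.39 (SE 0.21, unadjusted p = 0.0904) between 4-PBA and CVST+Ligation, and of -0.99 (SE 0.21, unadjusted p = 0.000855, adjusted p = 0.07) between 4-PBA and CVST. The last is a level 49.8% lower. Against CVST, in both ligated groups, its unadjusted p stayed below 0.05 in each of 21 alternatives. Its share of the family's FPKM was 30.7% to 32.9% in the CVST mice, 17.1% to 27.6% in the CVST+Ligation mice and at most 23.8% in the 4-PBA mice.

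The cortical excitatory markers behaved like Cacng3 across the groups, and whether the difference in Cacng3 goes beyond theirs was not tested. Cacng7, a type II TARP and the most abundant gamma gene, had 78.1, 93.1 and 80.3 CPM in the CVST mice, 70.5, 120 and 78.4 in the CVST+Ligation mice and 83.0, 73.4 and 76.2 in the 4-PBA mice. These groups overlapped, with unadjusted p-values from 0.304 to 0.629. The remaining 5 gamma genes were not called in any comparison, with unadjusted p-values from 0.0769 to 0.994. The TARPs Cacng2 and Cacng5 overlapped between CVST+Ligation and CVST. Cacng2 was lower in 4-PBA than in CVST+Ligation mice without overlap, at 21.6 to 26.9 against 29.9 to 42.1 CPM (unadjusted p = 0.0778), and Cacng5 was higher in 4-PBA than in CVST mice without overlap, at 6.35 to 7.75 against 1.46 to 5.81 CPM (unadjusted p = 0.221). For CVST+Ligation against CVST the 95% interval of the Cacng2 difference ran from -0.52 to 0.52 on the log2 scale.

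**Figure D4:**
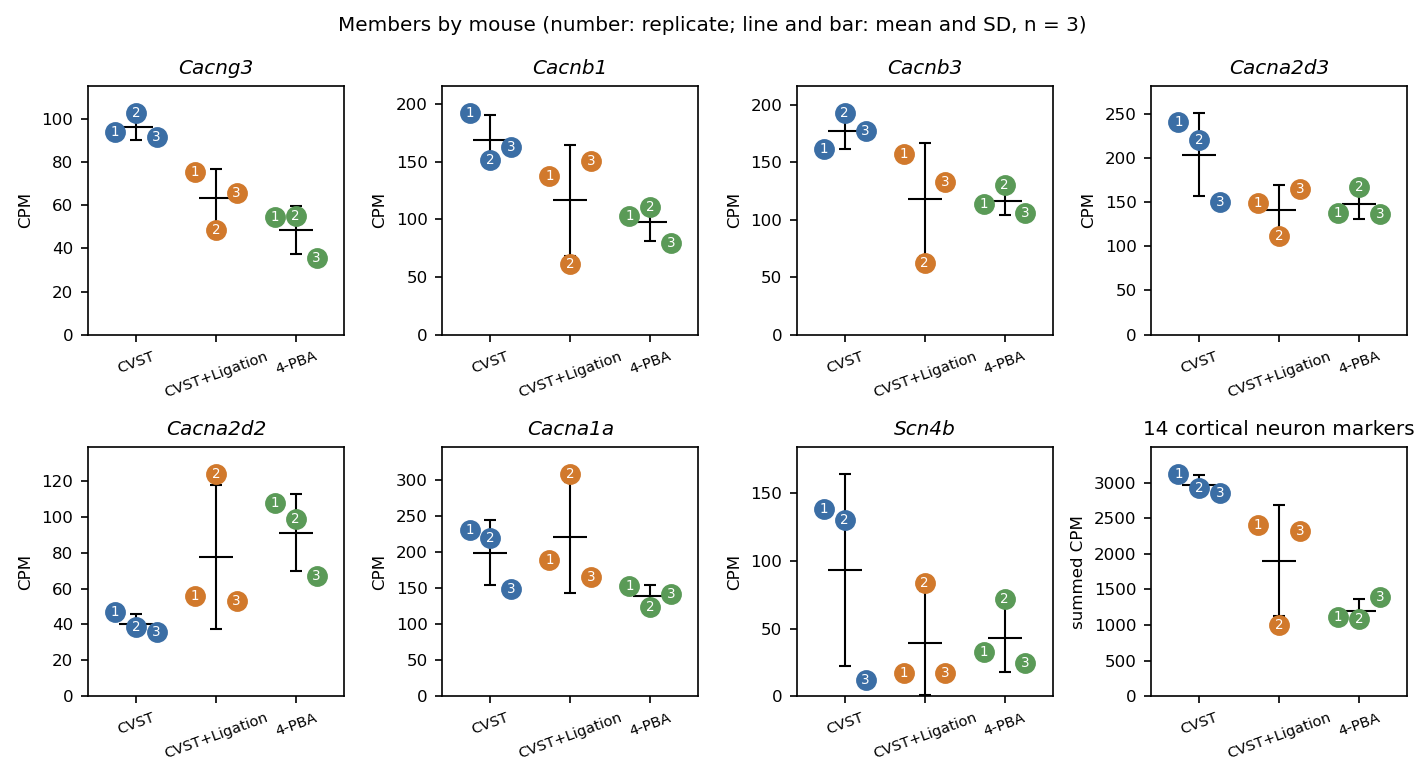
CPM of 7 channel genes and the summed CPM of 14 cortical excitatory neuron markers in each mouse (dots, numbered by replicate), with the mean and SD of each group; all axes start at 0. The 3 CVST dots lie above the 3 4-PBA dots for Cacng3, Cacnb1, Cacnb3 and the marker sum and below them for Cacna2d2, whereas Scn4b splits the CVST group into 2 dots at 138 and 130 CPM and 1 at 11.7.

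Among the sodium channels, the main pore genes of brain neurons were not called in any comparison. Scn8a, the pore of the axon initial segment and mature nodes, had 252, 240 and 98.3 CPM in the CVST mice, 237, 207 and 160 in the CVST+Ligation mice and 174, 121 and 150 in the 4-PBA mice. CVST 3 was lower than every other library, and all 3 groups overlapped. The log2 fold changes of Scn8a were 0.03, -0.44 and -0.41 with unadjusted p-values of 0.918, 0.197 and 0.231. Scn1a, whose product drives firing of inhibitory neurons, Scn2a, a pore of excitatory axons, and Scn3a, a pore best known from the embryonic brain, had unadjusted p-values from 0.116 to 0.827 in the 3 comparisons. Their lowest libraries were CVST 3 for Scn1a and Scn2a, at 33.5 and 73.8 CPM, and CVST+Ligation 2 for Scn3a, at 17.6 CPM.

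Sodium channel pore genes of low level were among those higher in the 4-PBA group. Scn9a, a pore of pain-sensing and sympathetic neurons that hypothalamic neurons also use, had 2.42, 4.35 and 3.36 CPM in the CVST mice, 5.66, 10.1 and 5.14 in the CVST+Ligation mice and 7.69, 19.1 and 8.57 in the 4-PBA mice. Every ligated mouse lay above every CVST mouse. The log2 fold change of Scn9a was 1.04 (SE 0.42, unadjusted p = 0.0347, adjusted p = 0.482) between CVST+Ligation and CVST and 1.80 (SE 0.43, unadjusted p = 0.00198, adjusted p = 0.1003) between 4-PBA and CVST. The first of these calls was lost in 7 of 21 alternatives, among them without CVST 1 (unadjusted p = 0.113), without CVST 3 (0.0787) and without CVST+Ligation 2 (0.145, log2 fold change 0.68). Without 4-PBA 2 the latter was 1.27 (unadjusted p = 0.00821), so its direction did not rest on that library. Hypothalamic markers (12 of 12) summed to 110 to 194 CPM in the CVST group, at most 171 in the CVST+Ligation group and 336 to 692 in the 4-PBA group. Npy, which cortical interneurons also express, made up 138 of the 161 CPM in CVST 1, while Pmch, a marker restricted to the hypothalamus, had at most 0.922 CPM in the CVST mice, at most 17.0 in the CVST+Ligation mice and 213 to 378 in the 4-PBA mice, and the part of these cells in Scn9a was not tested.

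Scn10a and Scn11a encode the tetrodotoxin-resistant sodium channels of nociceptors, the pain-sensing neurons of the dorsal root and trigeminal ganglia, and Scn7a encodes a sodium-sensing relative found in such neurons and in glia. Scn10a had 4, 15 and 6 counts in the CVST mice, 2, 2 and 7 in the CVST+Ligation mice, and 32, 2846 and 4 in the 4-PBA mice. Scn11a had 10, 4 and 85 counts, then 74, 4 and 84, then 43, 2061 and 8. Scn11a, described after its values were seen, and Scn10a thus had at most 85 counts in 8 libraries and at least 2061 in 4-PBA 2. Scn7a, with 62, 17 and 30 counts, 136, 41 and 93 counts, and 84, 1175 and 50 counts, was also highest there.

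In 4-PBA 2 the 7 peripheral sensory neuron markers summed to 419 CPM, against 8.25 to 19.5 CPM in the other 8 libraries. Prph was at 214 CPM, P2rx3 at 29.5, Isl1 at 19.0, Trpv1 at 12.7 and Mrgprd at 2.99. In that library Scn10a had 120 CPM, Scn11a 86.7, Scn7a 49.4 and Scn9a 19.1. The fit called Scn10a between 4-PBA and CVST+Ligation (unadjusted p = 0.00496, adjusted p = 0.9998) and between 4-PBA and CVST (unadjusted p = 0.00759, adjusted p = 0.156). Scn7a was called between 4-PBA and CVST (log2 fold change 3.47, SE 1.10, unadjusted p = 0.0109, adjusted p = 0.182), and Scn11a was not called (unadjusted p = 0.0501). Without 4-PBA 2 none of the 3 genes was called: between 4-PBA and CVST the log2 fold change became 1.24 for Scn10a (unadjusted p = 0.254), -0.41 for Scn11a (unadjusted p = 0.787) and 0.94 for Scn7a (unadjusted p = 0.168).

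**Figure D5:**
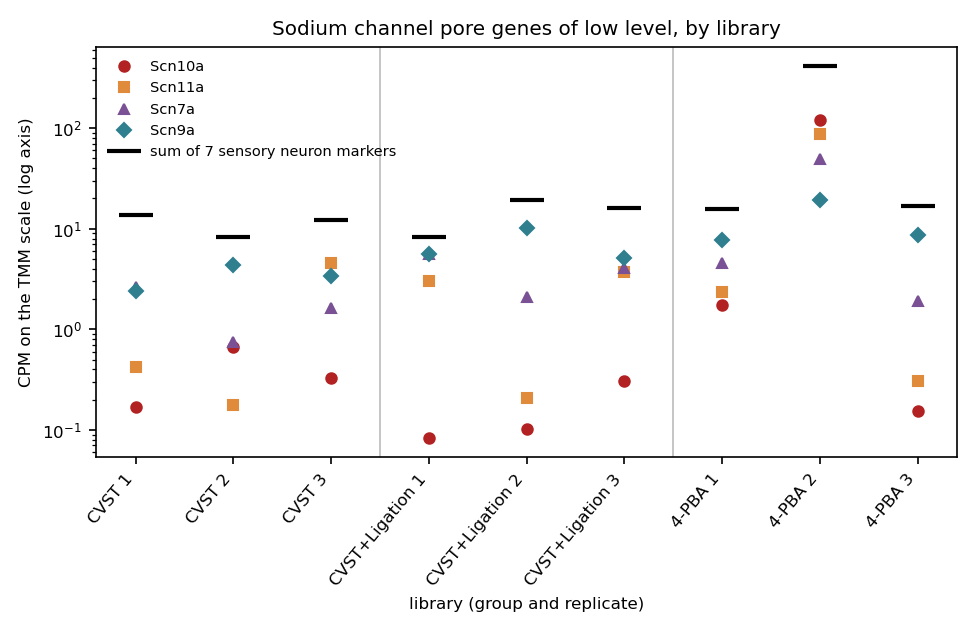
CPM on a log axis of 4 sodium channel pore genes of low level in each library, with a black bar for the summed CPM of 7 peripheral sensory neuron markers. In 4-PBA 2 the marker sum reaches 419 CPM and Scn10a 120 CPM, against at most 19.5 and 1.73 CPM elsewhere.

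Scn10a and Scn11a are neighbours on the minus strand of chromosome 9. The 250 bases before each gene's RefSeq start (GRCm38.p6, minus strand) are shown for the pair because they shared their high library, chr9:119719033-119719282 for Scn10a and chr9:119825457-119825706 for Scn11a. Capitals mark the longest run of bases that the 2 windows have in common, TTTAAAATCAC, which begins 207 bases before the start of Scn10a and 119 before that of Scn11a.
Scn10a: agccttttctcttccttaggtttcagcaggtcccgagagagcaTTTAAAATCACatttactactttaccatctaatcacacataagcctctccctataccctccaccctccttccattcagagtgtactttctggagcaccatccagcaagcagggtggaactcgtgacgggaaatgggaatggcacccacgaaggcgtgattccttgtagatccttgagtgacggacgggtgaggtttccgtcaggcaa
Scn11a: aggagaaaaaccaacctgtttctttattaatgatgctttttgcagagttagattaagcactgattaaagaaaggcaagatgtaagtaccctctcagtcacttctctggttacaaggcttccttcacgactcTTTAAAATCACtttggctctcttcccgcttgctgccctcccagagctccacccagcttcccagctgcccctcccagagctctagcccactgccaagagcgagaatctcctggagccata
The run was found, on either strand, in 6 of 32851 RefSeq windows (0.0183%). Of the 29 channel genes that had a window, it was found in these 2 only. It was picked as the longest match of the pair, so its rarity is a description and no test.

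Among the sodium channel beta genes, Scn2b and Scn3b, which bind sodium channel pores, had unadjusted p-values from 0.179 to 0.994. Scn4b, described here after its values were seen, is a beta subunit of striatal and cerebellar Purkinje neurons. It had 138, 130 and 11.7 CPM in the CVST mice, 16.8, 83.4 and 17.1 in the CVST+Ligation mice and 32.7, 71.6 and 24.6 in the 4-PBA mice. Both the CVST and the CVST+Ligation group were split, and Scn4b was not called (unadjusted p = 0.186, 0.877 and 0.233). Striatal markers (14 of 14) summed to 2142, 1624 and 1149 CPM in the CVST mice, 286, 345 and 597 in the CVST+Ligation mice, and 604, 1469 and 316 in the 4-PBA mice. In CVST 3, Penk made up 629 and Ppp1r1b 258 of the 1149 CPM. Other markers of the list were low there: Drd1 had 70.8, 50.7 and 17.6 CPM in the CVST mice, and Pde10a 152, 116 and 19.5. The part of striatal content in Scn4b was not tested.

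Single mice stood apart over several families. Of the 38 genes, 12 had their lowest level in CVST 3, namely Cacna1b, Cacna1c, Cacna1e, Cacna1i, Cacna2d2, Cacnb4, Cacng5, Scn1a, Scn2a, Scn8a, Scn2b and Scn4b. The median of the 38 genes there was -0.35 on the log2 scale relative to their mean over libraries. Over the 736 tested genes longer than 5000 bases the median was -0.25 in that library and 0.03 over the other genes, and 19 of the 38 channel genes are longer than 5000 bases against 4.99% of tested genes. Short genes went both ways in CVST 3. Scn2b and Scn4b were lowest there, at 37.3 and 11.7 CPM. Cacng8 was highest there, at 96.9 CPM, and Scn3b, at 37.0 CPM, lay above CVST 1 and CVST 2. The part of gene length in the levels of CVST 3 was not tested. Without CVST 3, 18 channel genes had an unadjusted p below 0.05 between 4-PBA and CVST (against 16.3% of all genes), the added ones including Cacna1a, Cacna1d, Cacna1i, Cacnb4, Cacng2 and Scn8a, all lower.

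CVST+Ligation 2 was the highest library for 7 channel genes, Cacna1a, Cacna2d2, Cacng2, Cacng5, Cacng7, Scn1a and Scn2b, and the lowest for 9, Cacna1h, Cacna2d1, Cacna2d3, Cacnb1, Cacnb3, Cacng6, Cacng8, Scn3a and Scn3b. Without it, 6 channel genes were called between CVST+Ligation and CVST (8.07% of all genes), among them Cacng3, and those not called with it were Cacna1h (0.66), Cacng6 (1.45), Scn3b (0.97) and Scn4b (-2.46, each as a log2 fold change). Between 4-PBA and CVST, 16 were called without it (19.1% of all genes, against 15.4% with it), and 6 passed after adjustment, among them Cacna2d2, Cacnb1, Cacnb3, Cacng3 and Scn9a. What sets these libraries apart was not tested.

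Of 74 symbols listed as partners of the channels, 72 were in the count table, and all 72 were tested. Of these, 13 had an unadjusted p below 0.05 between CVST+Ligation and CVST (18.1%, against 9.64% of all genes), 3 between 4-PBA and CVST+Ligation (4.17% against 3.23%) and 20 between 4-PBA and CVST (27.8% against 15.4%). In the last, 8 were higher and 12 lower. Calcium sensors and kinases that bind the channels had 5 of 12 lower and 0 higher, and the presynaptic scaffold that holds calcium channels had 4 of 12 lower and 0 higher, where 7.33% of all genes were lower and 8.07% higher. The sodium leak channel and its subunits had 2 of 5 higher, the alpha2delta-like genes and ligands 2 of 6 higher, each with 0 lower, and the anchors of the axon initial segment and node 2 of 11 higher and 1 lower. AMPA receptor subunits and partners had 1 of 9 in each direction, and STAC adaptors 1 of 3 in each direction. None was called of 4 fibroblast growth factor homologous factors, 4 RGK small GTPases and 6 genes of ubiquitin ligases and trafficking. Differences between these lists were not tested.

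Cabp1, a calcium-binding protein that modulates calcium channels, fell by 1.18 on the log2 scale between 4-PBA and CVST (SE 0.15, adjusted p = 0.0305), as the 1 partner gene past the adjusted threshold. It had 89.2, 107 and 100.2 CPM in the CVST mice, 53.8, 61.9 and 51.6 in the CVST+Ligation mice and 36.0, 49.2 and 45.4 in the 4-PBA mice. All 6 ligated mice lay below all CVST mice. The cortical excitatory marker sum had the same order, at 2858 to 3117 CPM in the CVST mice and 999 to 2397 in the ligated mice, and its part in the difference was not tested. Between CVST+Ligation and CVST Cabp1 had a log2 fold change of -0.82 (SE 0.15, adjusted p = 0.202), and between 4-PBA and CVST+Ligation one of -0.36 (SE 0.15, unadjusted p = 0.0395, adjusted p = 0.9998).

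Cachd1, a relative of the alpha2delta genes, had 16.5, 18.2 and 22.6 CPM in the CVST mice, 52.7, 66.4 and 38.5 in the CVST+Ligation mice and 49.0, 38.5 and 57.8 in the 4-PBA mice, and like Cacna2d2 it was higher in every ligated mouse. Its log2 fold change was 1.46 (SE 0.24, adjusted p = 0.151) between CVST+Ligation and CVST and 1.34 (SE 0.23, adjusted p = 0.0518) between 4-PBA and CVST. Shisa6, an AMPA receptor partner, had 5.95, 3.46 and 8.08 CPM in the CVST mice, 28.4, 16.3 and 11.3 in the CVST+Ligation mice and 18.2, 8.25 and 18.5 in the 4-PBA mice, so every ligated mouse lay above every CVST mouse. Shisa6 had a log2 fold change of 1.68 between CVST+Ligation and CVST (SE 0.45, adjusted p = 0.303). The thalamic marker sum was likewise higher in every ligated mouse, and its part in Cachd1 and Shisa6 was not tested. Snap25, a SNARE protein of the release machinery, had 1922, 2164 and 1731 CPM in the CVST mice, 1363, 1718 and 1612 in the CVST+Ligation mice and 1128, 1214 and 1156 in the 4-PBA mice, and no 2 groups overlapped. Snap25 is also 1 of the 12 general neuronal markers above. It had log2 fold changes of -0.42 between 4-PBA and CVST+Ligation (SE 0.13, adjusted p = 0.9998) and -0.73 between 4-PBA and CVST (SE 0.13, adjusted p = 0.0539). Calm3, 1 of the calmodulin genes, had 1297, 1328 and 1279 CPM in the CVST mice, 1259.7, 1076 and 1256 in the CVST+Ligation mice and 1057, 979.8 and 936 in the 4-PBA mice, again without overlap. The cortical excitatory marker sum was likewise higher in the CVST mice than in all ligated mice, and its part in Snap25 and Calm3 was not tested. Calm3 differed by -0.27 on the log2 scale between 4-PBA and CVST+Ligation (SE 0.11, unadjusted p = 0.0365).

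The 38 genes lie on 12 chromosomes, and several are clustered. Scn3a, Scn2a, Scn1a, Scn9a and Scn7a share chr2:65457118-66784914, and Cacng7, Cacng8 and Cacng6 share chr7:3332955-3435667 (GRCm38). In the chromosome 2 cluster Scn9a was higher in every ligated mouse than in any CVST mouse, and Scn3a was higher without overlap in 4-PBA than in CVST mice only (at least 37.2 against at most 35.5 CPM). Differences between neighbours were not tested. Exons of 2 members overlap those of another listed gene on the opposite strand, Cacna1d with Chdh over 589 bases and Cacna1h with Tpsg1 over 158 bases, none of them coding.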

How the data were processed

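RNA labelled as brain was sequenced as read pairs from 9 mice (CVST, CVST+Ligation and 4-PBA, 3 of each), and groups were taken from sample titles. Per the labels and the methods, the authors filtered reads with fastp, aligned them with HISAT2 (mm10, GRCm38), assembled transcripts with StringTie and quantified with RSEM, and the versions and the counting program are not given in the sources used here. They deposited counts, whole reads per gene symbol, and an expression matrix that the methods call TPM. Its values were FPKM as deposited by the authors: each equals counts per 1000000 divided by 1 gene length, and columns summed to 780195 to 879696.

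The counts were tested with edgeR 4.0.16 in R 4.3.3: genes passing filterByExpr (14746), trimmed mean of M values scaling, 1 quasi-likelihood model over all 9 libraries without covariates, Benjamini-Hochberg adjustment over all genes, threshold 0.05. Error values beside log2 fold changes are standard errors. The common biological coefficient of variation was 0.287. The scripts were tested on simulated data. Intervals of log2 fold changes come from that model and include the spread between mice, whereas the limits for counts of 0 cover counting error only. Alternatives were DESeq2 1.42.0, limma 3.58.1 on log2(FPKM + 1) and log2(FPKM + 0.1), other scalings and filters, a gene length offset, a replicate block and leaving out each mouse.

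The channel genes, partner genes and marker lists were chosen with earlier results of these data known, so no list was tested. Values per mouse were given for genes with an unadjusted p below 0.05 in 1 comparison or more, for the most abundant gene of each family, for genes whose groups did not overlap in both comparisons of CVST+Ligation (none), and for the 3 partner genes of smallest p in each comparison. Some genes and sequences, 2 of the 38 channel genes among them, are counted in the totals but not reported here. Positions are from GENCODE M21 and start regions from RefSeq, which held 29 of the 38 genes. Nothing in the sources says that mice were pooled, and replicates within a group differed beyond sampling noise.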

Additional observations from a re-analysis of the deposited data

Results flagged for a closer look

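Scn4a, the sodium channel pore of skeletal muscle, was left out of the 38 genes because too few libraries reached 10 counts. It had 0 counts in each CVST mouse, 0, 2 and 2 in the CVST+Ligation mice and 0, 29 and 0 in the 4-PBA mice. The 29 counts in 4-PBA 2 were picked out because they lie above the limit of 3 counts that a count of 0 allows in the CVST libraries. Skeletal muscle markers (12 of 12) summed to 21.9 CPM in 4-PBA 2, within their range of 18.7 to 37.8 CPM over the 9 libraries.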

How the results depend on the processing

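The number of channel genes with an unadjusted p below 0.05 ranged from 3 to 6 between CVST+Ligation and CVST, from 2 to 9 between 4-PBA and CVST+Ligation and from 8 to 18 between 4-PBA and CVST when 1 mouse was left out (5, 4 and 10 with all mice). Shares of all genes called are in parentheses. For 4-PBA against CVST+Ligation it was 7 without CVST 3 (4.04% of all genes), 9 without CVST+Ligation 2 (10%) and 2 without 4-PBA 2 (1.72%), against 3.23% with all mice, and limma gave 2 with FPKM + 1 (2.98%) and 1 with FPKM + 0.1 (2.85%). The low count is 3 without CVST 1 in the first comparison (8.42%), and the third gave 18 without CVST 3 (16.3%), 16 without CVST+Ligation 2 (19.1%) and 8 without CVST 1 (11.8%), 4-PBA 2 (10.7%) or 4-PBA 3 (15.7%). Without CVST 3, CVST+Ligation 2 and 4-PBA 2 together, chosen after seeing the data, the numbers were 10, 9 and 17 (11.6%, 9.94% and 17.9%), and Cacna1a reversed between CVST+Ligation and CVST, to -0.37 (unadjusted p = 0.0222). The median log2 fold change of the genes between 4-PBA and CVST+Ligation ran from -0.24 to 0.083 with 1 mouse left out, the latter without CVST+Ligation 1. It also changed sign in the others, from -0.11 (without CVST+Ligation 1) to 0.16 (without CVST 1) between CVST+Ligation and CVST and from -0.18 (without 4-PBA 1) to 0.13 (without CVST 1) between 4-PBA and CVST. The cause was not tested in any of these. Over 42 single-gene results and up to 21 alternatives, 768 of 874 values kept their side of the threshold, 60 lost and 45 gained a call, and 1 reversed. Values that kept their side could change sign. Cacna1a did so between CVST+Ligation and CVST, from 0.15 to as low as -0.17 with 1 mouse left out.

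Deviations of mice with the same replicate number correlated at -0.05 to 0.32, over 0.1 in 4 of 9 pairs. Among mice of other groups, 7 of 9 libraries correlated best with one of their own number. Whether the number marks a shared batch was not tested. With a replicate block the counts were 4, 6 and 9 of 38 (12%, 3.53% and 17.9% of all genes). Genes that differ in 1 mouse only, such as Scn10a, and genes near 10 counts, such as Cacna1f and Cacng6, are limited by depth and by 3 mice a group.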
